A study of Homo sapiens with 40 samples.

Results

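BT474R, a trastuzumab-resistant derivative of the BT474 cell line, was compared with BT474 at T0, which is the state after serum starvation and before vehicle or ligand. The comparison used the 4 libraries that carry the baseline titles, 2 of BT474R and 2 of BT474, out of 40 RNA-seq libraries in the series, and it covered all genes. It asked which genes were gained, lost or silenced in the resistant line in the absence of ligand. BT474 is a HER2-positive ductal breast carcinoma line that responds to trastuzumab, and BT474R was grown out of it in the presence of trastuzumab and carried on as 1 clone, so what belongs to resistance and what belongs to that clone cannot be told apart here. Cells of both lines were serum starved in the same way and collected with neither EGF nor HRG. The remaining libraries hold cells given vehicle (water), EGF or HRG and collected 1 h, 12 h or 24 h later, with 2 libraries in each group of each line. Of these, the 12 vehicle libraries were used to see whether the T0 differences recur in libraries other than those at T0. The sources used here do not say whether the 2 libraries of a group come from separate cultures, so the p-values measure the spread between these libraries, which may be technical. Counts of RNA do not tell a deleted gene from a silent one, nor, in a bulk sample, fewer expressing cells from less RNA per cell.

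HER2 is the receptor tyrosine kinase encoded by ERBB2, which lies in a stretch of chromosome 17 that is amplified in HER2-positive tumours, and it signals in pairs with EGFR, HER3 and HER4 through the PI3K/AKT and RAS/MAP kinase pathways. Trastuzumab is an antibody against the outer part of HER2. Luminal breast cells are also governed by the estrogen and progesterone receptors with the transcription factors GATA3 and FOXA1. A gene can lose its RNA through deletion, through methylation of its promoter or through loss of the factors that drive it, and imprinted genes, which are read from the maternal or the paternal copy alone, can change level when that mark is gained or lost.

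The T0 libraries held between 16794594 and 24915217 counts assigned to genes, and the 50 most abundant genes took 13% to 15.2% of them. The 10 markers of luminal breast epithelium summed to 14322 to 14714 CPM, the counts scaled to library size, in BT474 and 14937 to 15410 in BT474R. Most of this was ERBB2, with 8141 and 7945 CPM in BT474 and 9463 and 9168 CPM in BT474R. By the test described below, 4 of the 10 were higher in BT474R and 5 lower, so the sum does not describe the markers one by one. The 8 basal markers summed to 13.7 to 15.4 CPM in BT474 and 5.22 to 5.52 CPM in BT474R, and the 9 leukocyte markers to between 1.98 and 3.47 CPM, with CD3E, CD14 and TYROBP without a count in any of the 4. The 9 fibroblast markers summed to 82.8 and 91.7 CPM in BT474 and to 202 and 199 CPM in BT474R, and nearly all of this was COL1A1, while DCN had no count. The endothelial markers summed to 14.9 to 23.2 CPM and the adipocyte markers to 1.55 to 4.87 CPM. The part of these markers in the differences below was not tested.

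At T0, 11554 of 24641 genes tested (46.9%) differed between the lines at an adjusted p below 0.05. These are referred to as called, and 6196 of them (25.1% of all genes tested) were higher and 5358 (21.7%) lower in BT474R. The difference reached 1 or more on the log2 scale in 4058 genes (16.5%), with 2017 higher (8.19%) and 2041 lower (8.28%). Of the 11554 genes, 8062 (69.8%) were called in the same direction in all 3 comparisons of the lines after vehicle, and 10686 (92.5%) kept their sign in all 3. Over all genes tested, called at T0 or not, the same shares were 34.8% and 65.3%. At 1 h of vehicle the comparison of the lines called 12359 genes (50.2%) by itself, with 12081 (49.0%) called at 12 h and 12152 (49.3%) at 24 h. The size of the line difference had changed from T0 for 120 genes (0.487%) by 1 h, for 331 (1.34%) by 12 h and for 1592 (6.46%) by 24 h. The libraries of the lines did not overlap in 17536 genes (71.2%), and 11538 genes (46.8%) were both called and without overlap. Counts of called members of a list, family or run below are to be read beside the shares of 25.1% higher and 21.7% lower. All differences below are BT474R minus BT474 on the log2 scale with their standard error (SE), and adjusted p-values are those of edgeR's quasi-likelihood F test over all genes tested.

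**Figure D1:**
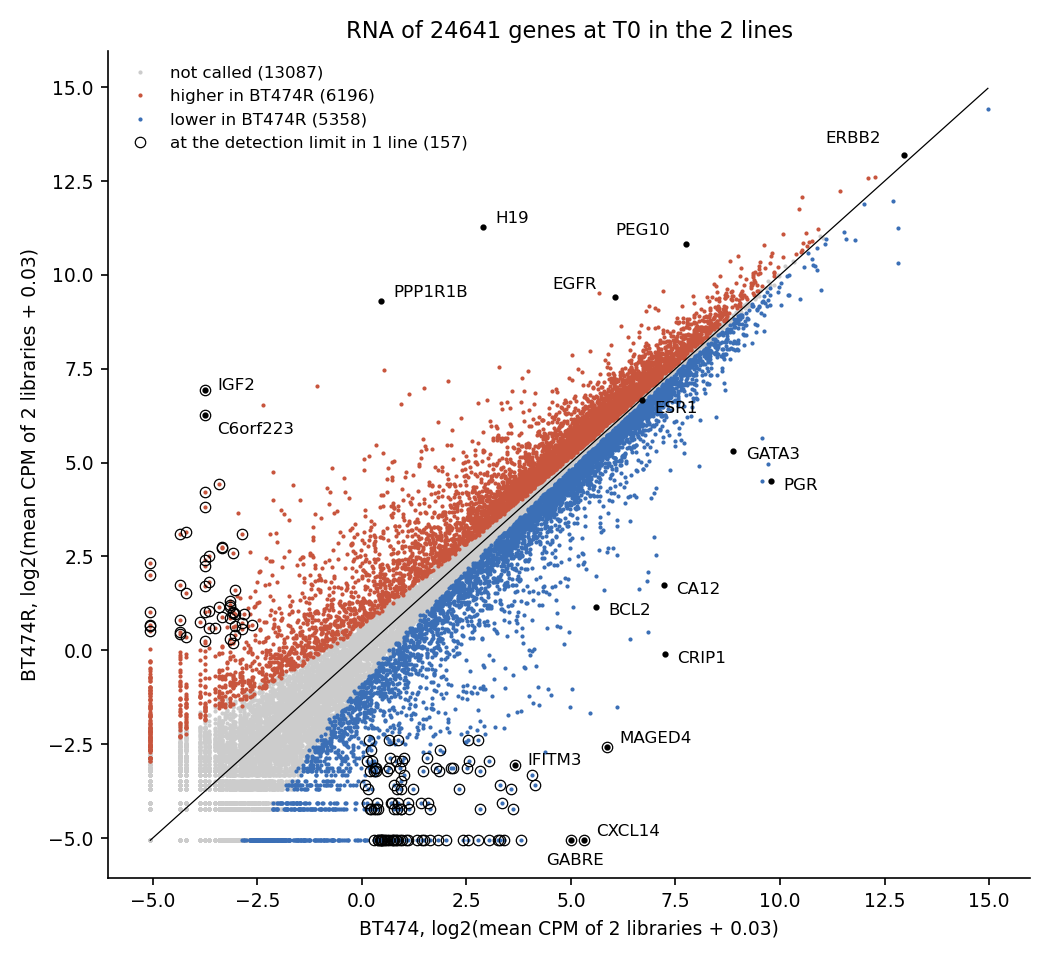
Mean CPM of each gene in BT474 (horizontal axis) and BT474R (vertical axis) at T0, both on a log2 scale after adding a small constant, with the 6196 higher genes in red, the 5358 lower genes in blue and the 13087 not called in grey. Open circles mark the 157 genes at the detection limit in 1 line, and the line is equality: CXCL14 and GABRE lie at the floor of the BT474R axis, IGF2 and C6orf223 near that of the BT474 axis, and ESR1 and ERBB2 close to equality.

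A set of 105 genes had at least 1 CPM in each BT474 library and no more than 3 counts in each BT474R library, which is taken here as the detection limit. All 105 were called, beside 46.9% of all genes, as their selection on these libraries would make them. Of the 105, 49 stayed at 3 counts or fewer in all 20 BT474R libraries (46.7%), and none reached 1 CPM in a vehicle group. Without BT474R replicate 2, where the limit rests on the other library alone, the count was 164. CXCL14, a chemokine of epithelia, had the largest fitted fall among called genes at 1 CPM or more. Its level was 39.1 and 40.4 CPM in BT474 (1012 and 826 counts) and 0 counts in both BT474R libraries. This is at least 503-fold lower against a floor of 3 counts over the group. With no count in BT474R, the fitted log2 difference (-12.93, SE 0.32, adjusted p = 1.95e-22) is not a measured fold, and its size should be read from the bound. No count of CXCL14 was found in any of the 20 BT474R libraries, while the 20 BT474 libraries ranged from 27.4 to 53.7 CPM around a median of 37.0. GABRE, a subunit of the GABA-A receptor on chromosome X, was likewise without a count in all 20 BT474R libraries and stood at 29.8 and 34.5 CPM in BT474 at T0, at least 404-fold higher there. Its neighbour in function, GABRQ, had 8.39 and 7.87 CPM in BT474 and 0 in BT474R at T0.

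The CXCL14 promoter is shown because the gene had the largest fitted fall of those at 1 CPM or more. The 250 bases before its start, chr5:135578992-135579241 on the minus strand of GRCh38.p14 (RefSeq), hold 25 CG pairs, given in capitals.
CXCL14: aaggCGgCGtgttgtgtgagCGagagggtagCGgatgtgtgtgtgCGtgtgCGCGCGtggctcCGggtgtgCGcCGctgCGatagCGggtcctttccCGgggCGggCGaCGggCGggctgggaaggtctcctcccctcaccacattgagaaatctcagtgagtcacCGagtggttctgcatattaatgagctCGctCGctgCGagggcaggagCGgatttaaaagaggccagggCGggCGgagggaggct
Across the 15307 tested genes with a promoter in RefSeq the median was 18 CG pairs, and 72.5% had 10 or more. Among the genes lost in BT474R, 69 of the 89 with a gene name of their own had a promoter there, with a median of 9 CG pairs and 49.3% at 10 or more. The genes at 1 CPM or more in BT474 had a median of 21 and 84.6%, and the lost genes held fewer CG pairs than these. Of the 42 named genes at the detection limit in BT474 instead, 27 had a promoter, with a median of 13 and 51.9% at 10 or more. Fewer CG pairs were therefore not particular to the lost genes. These are counts of letters, and methylation was not measured.

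Further lost genes are known from several settings. MAGED4, a member of the melanoma antigen family, fell from 57.7 and 57.8 CPM to 0.18 and 0.0936 CPM (3 and 2 counts), a ratio of 439 with a 95% counting interval of 188 to 1353. MAGED4B fell with it, but these genes are near-identical copies and reads could be split between them, so neither value is certain. TCEAL8, DYNLT3 (a dynein light chain), PWWP3B, NLGN4X (a synaptic adhesion protein) and MAGEH1, all on chromosome X, had 0 counts in both BT474R libraries and were at least 178-fold, 133-fold, 125-fold, 120-fold and 87.6-fold higher in BT474. Off chromosome X, the actin-binding ABLIM3, the zinc finger gene ZNF727, the adrenergic receptor ADRA2A and the microtubule gene MAP9 also had 0 counts, at least 73.1-fold, 67.3-fold, 50.4-fold and 44.6-fold lower in BT474R. APOBEC3F, a cytidine deaminase that restricts retroviruses, went from 17.2 and 17.7 CPM to 1 count in each BT474R library, a ratio of 332 (95% counting interval 91.5 to 2744). IFITM3, an antiviral membrane protein induced by interferon, had 13.4 and 11.9 CPM against 3 counts and 0 counts, a ratio of 162 (55.0 to 785). The remaining named losses were ACSS3 (an acyl-CoA synthetase), ROBO2 (an axon guidance receptor), SPAG16 and the cytochrome CYP1A2, each with 1 or 2 counts over both BT474R libraries. Their ratios of BT474 to BT474R ran from 463 for ACSS3 (95% counting interval 82.8 to 18326) to 189 for CYP1A2 (52.1 to 1568).

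In the other direction, 52 genes were at the detection limit in both BT474 libraries and at 1 CPM or more in both BT474R libraries, and 14 of them (26.9%) stayed at the limit in all 20 BT474 libraries. All 52 were called, again by their selection, and without BT474 replicate 1 the count was 90. IGF2, the fetal insulin-like growth factor that is imprinted, led this set. It had 1 count in each BT474 library and 128 and 119 CPM in BT474R (2125 and 2532 counts), a ratio of 2835 with a 95% counting interval of 784 to 23420 (log2 difference 11.31, SE 0.33, adjusted p = 1.44e-24). Over all 20 libraries of each line IGF2 did not pass 0.0819 CPM in BT474 and did not fall under 98.2 CPM in BT474R. C6orf223, a gene whose role is not established, had 1 count in each BT474 library and 75 and 79.3 CPM in BT474R. APOD, a lipocalin that carries lipids, rose from 1 count in each library to 19.4 and 18.0 CPM, and MDFI, an inhibitor of myogenic factors, from 2 counts and 1 count to 21.9 and 21.0 CPM. MEG3, a maternally expressed long RNA, and DLK1, its paternally expressed neighbour, were both gained, at 5.34 and 4.63 CPM and at 14.6 and 13.7 CPM in BT474R. CA9, the carbonic anhydrase known as a hypoxia marker, had 1 count and 0 counts in BT474 and 8.70 and 8.28 CPM in BT474R. AQP12A, at least 60.1-fold higher in BT474R, and AQP12B, with a ratio of 102 (34.5 to 497), were gained as well, but are near-identical aquaporin genes and their split is uncertain. GPR141 (an orphan receptor), MRAP2 (a partner of melanocortin receptors), the noncoding LINC02303, the zinc finger gene ZNF716 and the granule protein CHGB complete the named gains. ZNF716 and CHGB had no count in BT474 and were at least 30.4-fold and 24.4-fold higher in BT474R. The ratios of GPR141, LINC02303 and MRAP2 were 405 (72.3 to 16063), 104 (35.2 to 507) and 78.9 (33.5 to 245).

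**Figure D2:**
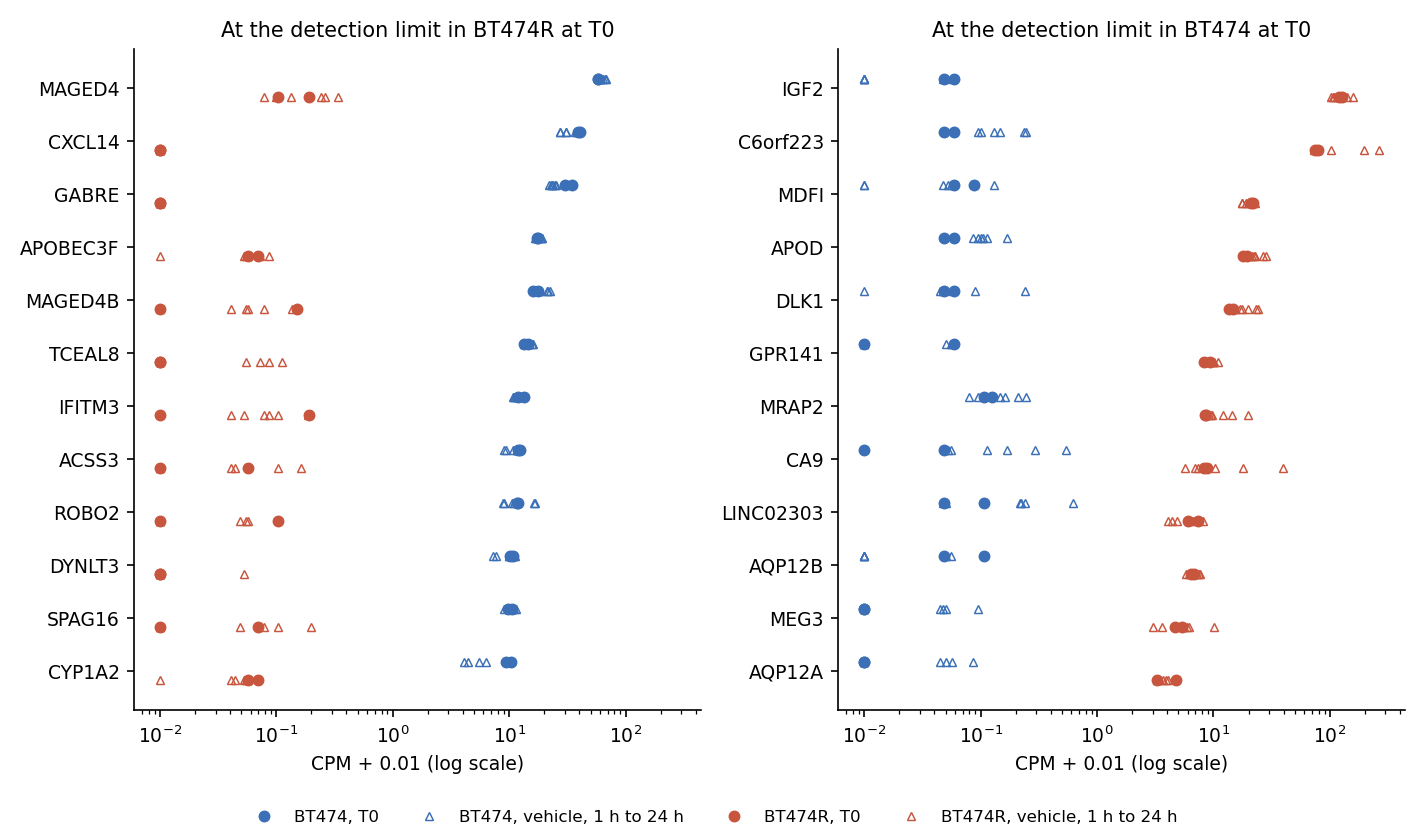
CPM on a log scale, after adding a small constant, of the 12 named genes with the highest level in the other line among those at the detection limit in BT474R (left) and in BT474 (right). Filled circles are the T0 libraries and open triangles the vehicle libraries of each line, and for each of these genes every BT474 value lies on 1 side of every BT474R value.

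Among genes at 100 CPM or more in the higher line, PGR, the progesterone receptor, was among the largest losses. It had 854 and 900 CPM in BT474 and 21.7 and 23.4 CPM in BT474R (log2 difference -5.27, SE 0.10, adjusted p = 5.88e-32). CRIP1, a small LIM protein, fell from 154 and 149 CPM to 1.14 and 0.655 CPM (-7.44, SE 0.12), the largest fall at this level. CA12, a carbonic anhydrase of luminal cells, fell by 5.51, the Rac exchange factor PREX1 by 5.05, the neuropeptide Y receptor NPY1R by 4.96, the actin scaffold PALLD by 4.76, the collagen COL12A1 by 4.74 and the natriuretic peptide receptor NPR3 by 4.48. The libraries of the lines lay far apart for each of these genes, since over all 20 libraries of each line none of the 8 overlapped.

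The largest gains at this level were IGF2, PPP1R1B and H19. H19, the maternally expressed RNA next to IGF2, had 7.89 and 6.95 CPM in BT474 and 2521 and 2423 CPM in BT474R (log2 difference 8.37, SE 0.23, adjusted p = 8.96e-27). S100A1, a calcium-binding protein, rose by 6.96, the Wnt inhibitor APCDD1 by 5.72, the lipase CEL by 5.53, the calponin CNN2 by 5.13 and the calmodulin-like CALML5 by 4.26. H19 was the most variable of these in BT474, where the 20 libraries ranged from 4.08 to 81.0 CPM, yet the lowest of the 20 BT474R libraries was at 2287 CPM.

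Lost genes were unevenly placed along the genome. Of the 688 genes tested on chromosome X, 17 (2.47%) were at the detection limit in BT474R, against 82 of 20680 (0.397%) on chromosomes 1 to 22. Over the whole of chromosome X, 39.5% of genes were higher and 14.1% lower in BT474R, with a median of 0.24. Its losses sat beside members of the same families that were kept: of 11 TCEAL and BEX genes 3 were lower and none higher, and of the 5 MAGED and MAGEH genes 3 were lower and 2 higher. In windows of 25 neighbouring genes, 12.7% of 20816 windows had a median log2 difference of 0.5 or more in size, 1168 of them higher and 1469 lower in BT474R. The families described next were picked after these windows had been seen.

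Of the clustered protocadherins on chromosome 5, adhesion proteins each read from a promoter of its own, the beta cluster was lower in BT474R. Of its 19 genes tested, 17 were called lower and none higher, with a median of -3.58. PCDHB9 had 6.61 and 7.53 CPM in BT474 and 0.3 and 0.187 CPM in BT474R (log2 difference -4.86, SE 0.35), and PCDHB6 had 5.68 and 4.60 against 0.18 and 0.187 CPM (-4.78, SE 0.33). PCDHB4 fell least among the called members, by 1.15, with its BT474R libraries at 6.24 and 5.20 CPM. In the gamma cluster 10 of 21 were lower and none higher, with a median of -2.38, among them PCDHGA9 (-4.23, SE 0.38) and PCDHGB6 (-2.38, SE 0.26). A mean of 1 CPM or more in either line was reached by 10 beta genes, all called lower. In the gamma cluster 4 genes reached it, 3 of them lower, and in the alpha cluster, described below, 3, of which 2 were higher. The other members, and so the medians, rest on few counts. PCDHGC3, a gamma gene of the C type, stood at 20.7 and 17.8 CPM in BT474 and 19.4 and 18.9 CPM in BT474R, and its difference of -0.01 (SE 0.10, adjusted p = 0.924) was within the spread of the libraries. In the alpha cluster, which lies upstream, 2 of 14 were called, both higher, among them PCDHA5 by 0.51 (SE 0.17), whose adjusted p was 0.057 without BT474 replicate 1, 0.0753 without BT474 replicate 2 and 0.281 without BT474R replicate 2.

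On chromosome 15, the SNRPN domain, which is paternally expressed and whose loss causes Prader-Willi syndrome, was far lower in BT474R. Of its 16 genes tested 13 were lower and none higher, with a median of -4.95. SNHG14, the long host transcript, had 84.1 and 87.4 CPM in BT474 and 0.9 and 1.5 CPM in BT474R (-6.11, SE 0.11, adjusted p = 8.05e-33). IPW fell from 21.2 and 20.2 to 0.06 and 0.187 CPM (-7.25, SE 0.24), and SNRPN from 2.82 and 1.52 to 0.18 and 0.187 CPM (-3.56, SE 0.45). The small nucleolar genes of the domain lie within SNHG14 and share its reads, so they do not count as further evidence. They are nonetheless part of the 13 and of the median, and IPW and the PWAR RNAs may share reads too. The 13 are thus not separate findings. A mean of 1 CPM or more in either line was reached by 6 genes of the domain, all called lower. UBE3A, a neighbour of the domain, fell by 0.35 (SE 0.04) and kept 138 and 140 CPM in BT474R. From which parental copy any of these genes was read was not tested.

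On chromosome 6, 28 of 46 histone genes tested were lower in BT474R and none was higher, with a median of -1.19, and 5 of the 6 BTN2 and BTN3 butyrophilins next to them were lower, with a median of -1.37. Both medians lay nearer to 0 at 24 h of vehicle. The histone median was -1.04 at 1 h, -0.55 at 12 h and -0.30 at 24 h, where 11 of 46 were called lower and 17 had a difference above 0, and the butyrophilin median was -0.35 at 24 h, with 3 called lower and 1 higher. The change from T0 to 24 h itself passed the test for 4 of the 46 histone genes and 3 of the 6 butyrophilins. Of the other families, 17 of the 19 protocadherin beta genes were called lower at each vehicle time, and at 24 h all 16 genes of the SNRPN domain were. Most histone messages lack a poly(A) tail and the kit selects for one, so these counts cover the part of histone RNA that was captured. The longest run of higher windows held 118 genes on chromosome 16, from EIF3CL to BCKDK, with 78 called higher and 6 lower and a median of 0.65.

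**Figure D3:**
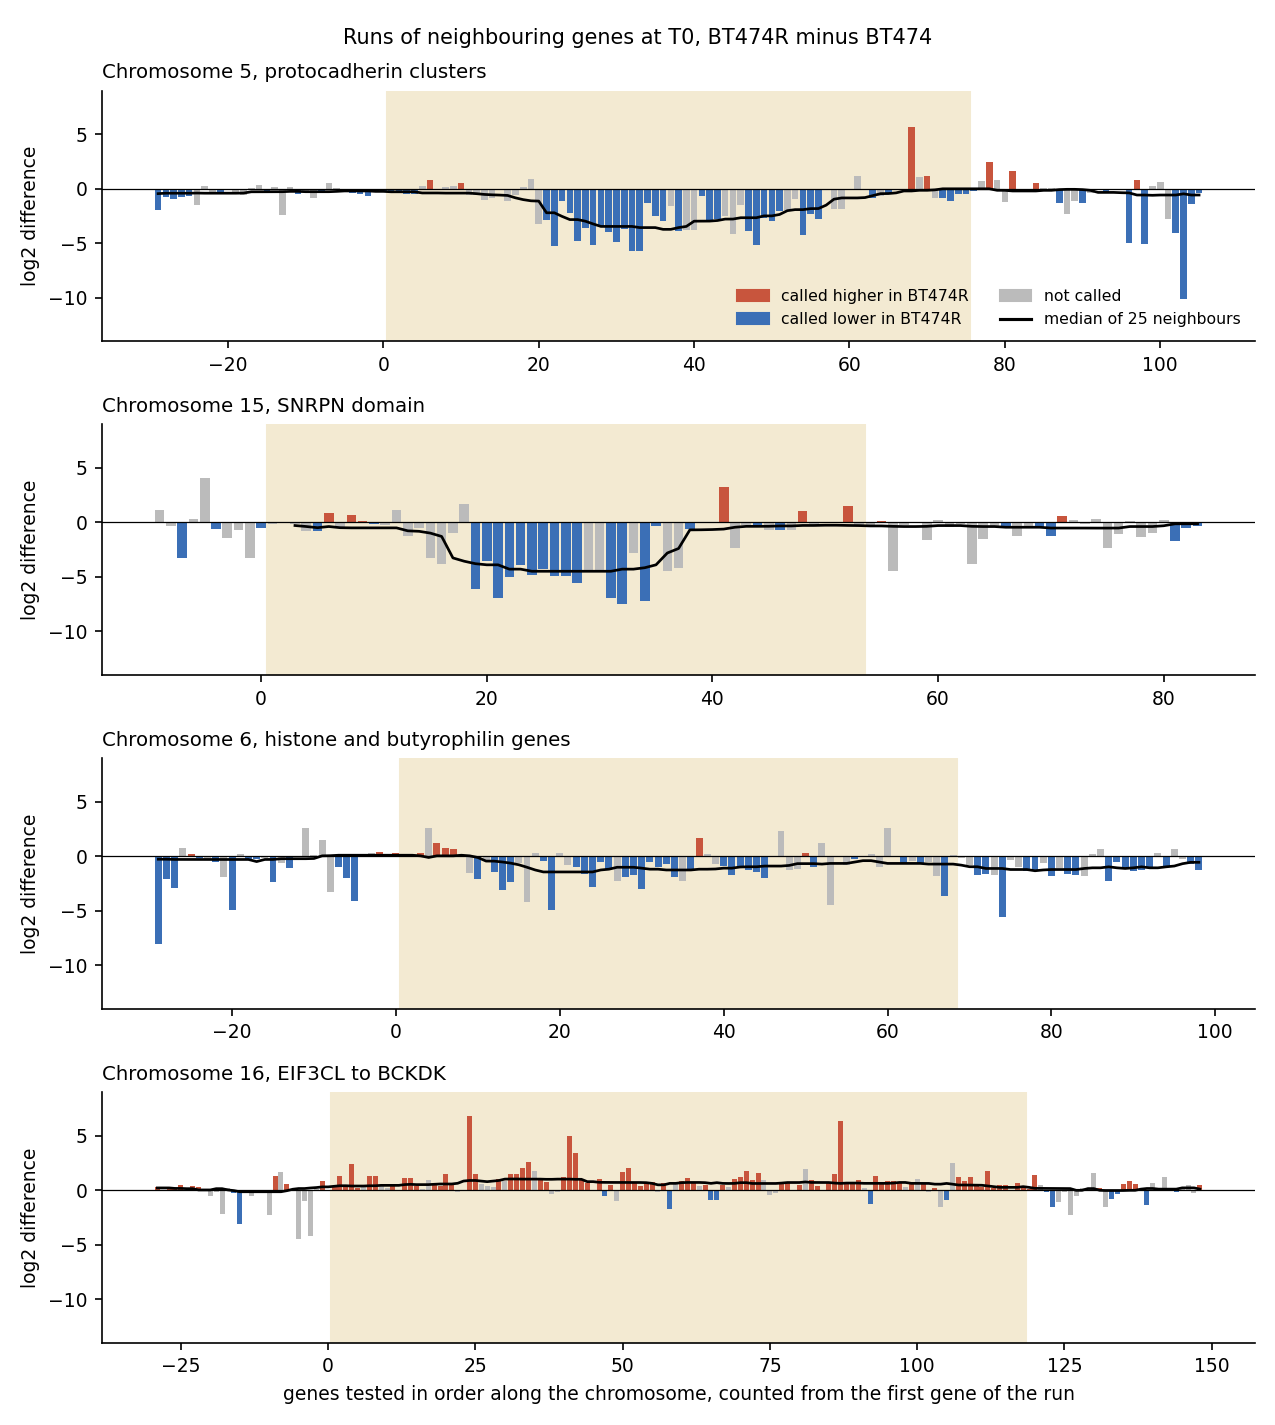
The log2 difference of each tested gene, in its order along chromosomes 5, 15, 6 and 16, with the run shaded, genes called higher in red, called lower in blue and not called in grey; the black line is the median of 25 neighbours. Blue bars fill the protocadherin beta and gamma genes and the SNRPN domain, and the chromosome 16 run is a broad excess with a median of 0.65.

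Imprinted genes as a list, IGF2, H19, DLK1, MEG3 and SNRPN included, moved in both directions. Of 19 tested, 10 were called higher and 4 lower, and 9 rose by 1 or more, beside 8.19% of all genes; the median of the list was 0.14. PEG10, a retrotransposon-derived gene read from the paternal copy, had 219 and 215 CPM in BT474 and 1857 and 1780.5 CPM in BT474R (3.07, SE 0.09), and its neighbour SGCE rose by 3.15 (SE 0.12). RTL1, which lies with DLK1 and MEG3, rose by 4.02 (SE 0.99) on few counts, between 0 and 12 a library, and its adjusted p was 0.0737 without BT474R replicate 1. Lower were SNRPN, MEST (-0.40, SE 0.12), PEG3 (-2.46, SE 0.26), which encodes a zinc finger protein, and GRB10 (-1.0, SE 0.06), an adaptor that restrains insulin and IGF1 signaling.

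All 4 ERBB receptors differed between the lines. EGFR had 71.3 and 61.8 CPM in BT474 and 658 and 701 CPM in BT474R, the largest change of the family (3.35, SE 0.10, adjusted p = 5.44e-26). ERBB2 itself differed little, with 8141 and 7945 CPM in BT474 and 9463 and 9168 CPM in BT474R (0.21, SE 0.04, adjusted p = 1.27e-05). The ERBB2 ranges of the 20 libraries of each line overlapped, and at 24 h of vehicle the difference was 0.04. ERBB3, which has little kinase activity and recruits PI3K, rose by 0.32 (SE 0.05), and ERBB4 fell from 36.0 and 35.2 to 11.2 and 11.7 CPM (-1.63, SE 0.09). Of 10 ligand genes tested, 4 were lower and none higher, with a median of -1.11. AREG (amphiregulin) fell by 2.87 (SE 0.32) from 3.67 and 3.28 CPM, BTC (betacellulin) by 1.90 (SE 0.28), NRG3, which binds ERBB4, by 1.76 (SE 0.22) and EPGN (epigen) by 2.81 (SE 1.05, adjusted p = 0.0254) on no more than 7 counts a library. The adjusted p of EPGN was 0.186 without BT474 replicate 1 and 0.145 without BT474R replicate 1.

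Around ERBB2 on chromosome 17, 11 of 20 neighbours were higher and 4 lower, with a median of 0.26. STARD3, a cholesterol transporter that is amplified with ERBB2, rose by 0.53 (SE 0.04), the adaptor GRB7 by 0.49 (SE 0.08), MIEN1 by 0.51 (SE 0.05), ORMDL3 by 0.70 (SE 0.04) and GSDMB by 0.99 (SE 0.11), and PGAP3 fell by 0.53 (SE 0.05). PPP1R1B, which encodes the phosphatase inhibitor DARPP-32 and lies beside STARD3, stood apart from them. It had 1.28 and 1.42 CPM in BT474 and 652 and 618 CPM in BT474R (8.88, SE 0.21, adjusted p = 8.13e-29), with 0.673 to 3.12 CPM over all 20 BT474 libraries and 589 to 1312 CPM over the 20 of BT474R. PNMT, the enzyme that makes adrenaline, also rose beyond its neighbours, from 35.0 and 37.5 to 181 and 178 CPM (2.31, SE 0.07).

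Other receptor tyrosine kinases moved both ways: 14 of 31 were higher and 9 lower, with a median of 0.23. FGFR3 rose from 15.4 and 16.2 to 183 and 163 CPM (3.45, SE 0.09), MST1R, the receptor for macrophage-stimulating protein, from 5.76 and 6.65 to 44.2 and 51.3 CPM (2.96, SE 0.11), RET by 1.58 (SE 0.05) and FGFR4 by 1.29 (SE 0.05). IGF1R fell from 94.5 and 98.7 to 33.2 and 34.1 CPM (-1.52, SE 0.07) and the neurotrophin receptor NTRK3 from 3.05 and 2.98 to 0.06 and 0.187 CPM (-4.47, SE 0.47). So the IGF axis held a gained ligand, IGF2, beside a lower receptor. Its adaptors also diverged, IRS1 falling by 1.68 (SE 0.09) and IRS2 rising by 1.82 (SE 0.18).

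The PI3K and AKT pathway changed in both directions, with 12 of 32 genes higher (37.5%), 11 lower (34.4%) and a median of 0.03. The shares over all genes were 25.1% and 21.7%. By 1 or more, 5 genes of the pathway were higher and 4 lower. INPP4B, a lipid phosphatase that opposes PI3K, fell from 214 and 203 to 44.8 and 46.5 CPM (-2.19, SE 0.10) and the mTOR inhibitor DEPTOR by 1.22 (SE 0.09). Both are falls, and the 5 genes that rose by 1 or more are counted here without their names. Among MAP kinase feedback genes, which are induced by ERK and of which some restrain it, 15 of 22 were higher and 3 lower, with a median of 0.75. The transcription factor ETV5 rose from 4.91 and 3.86 to 47.3 and 41.6 CPM (3.32, SE 0.12), the inhibitor SPRY4 from a mean of 9.42 to 55.1 and 48.2 CPM (2.46, SE 0.12), ETV4 by 2.31 (SE 0.20), the phosphatase DUSP6 by 1.71 (SE 0.10) and DUSP4 by 1.55 (SE 0.05). EGR1, an immediate early gene of the same pathway, went the other way (-1.89, SE 0.21). After 24 h of vehicle the excess of ETV4 had shrunk to 0.14 and that of ETV5 to 1.75.

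**Figure D4:**
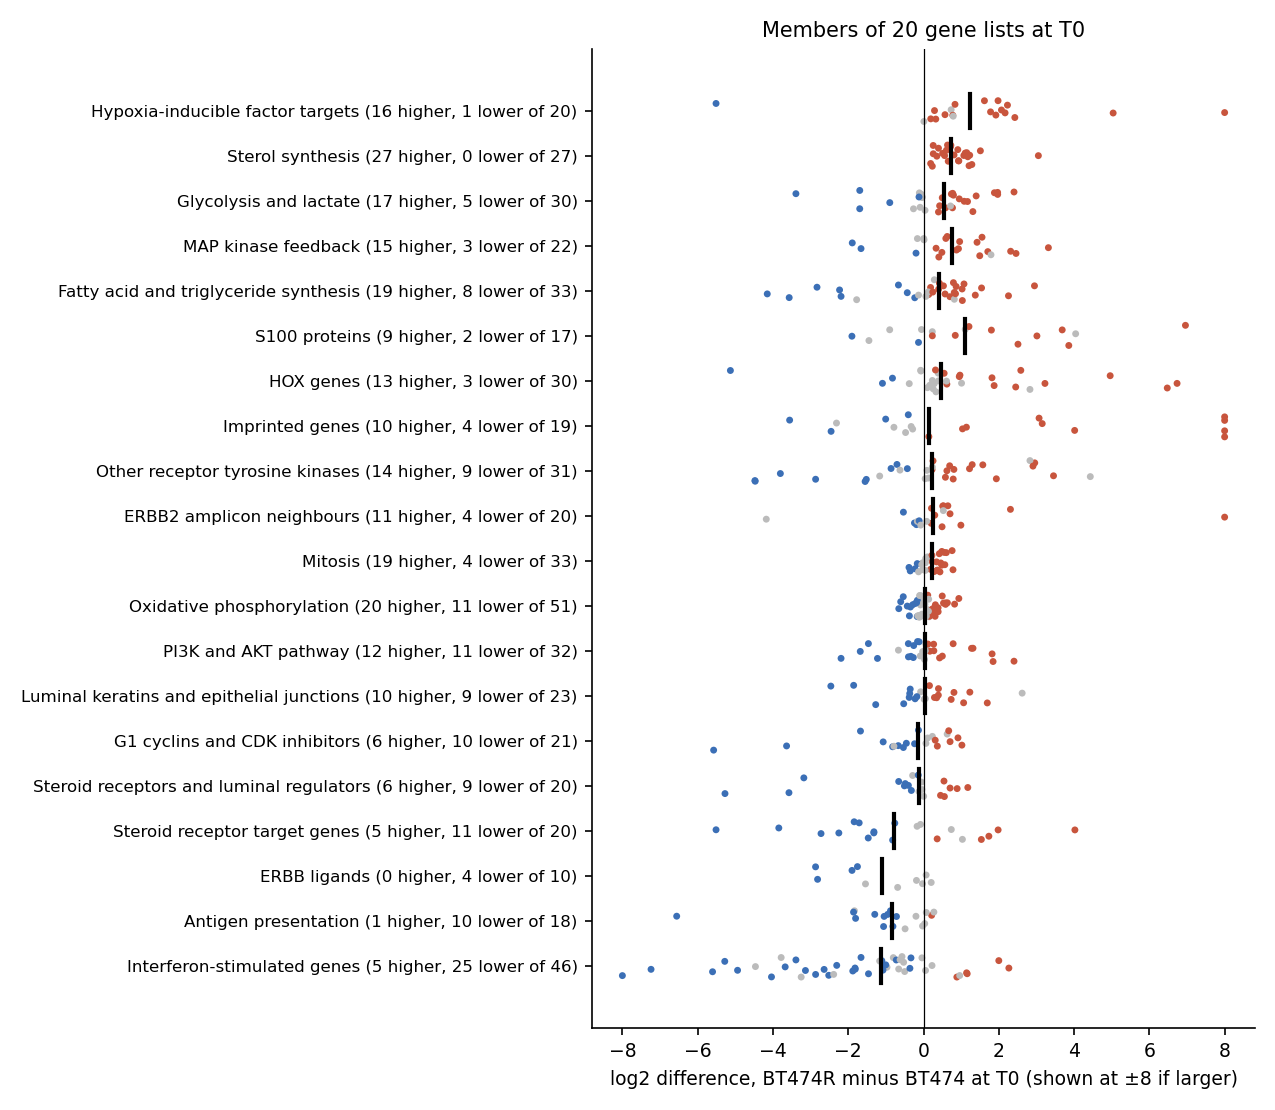
The log2 difference of each tested member of 20 gene lists (horizontal axis, values beyond 8 drawn at 8), with called higher in red, called lower in blue, not called in grey and a bar at the median of the list; the counts beside each name give the members called. Sterol synthesis has 27 of 27 members called higher, and interferon-stimulated genes 25 of 46 called lower.

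Steroid receptors and luminal regulators did not move together. ESR1, the estrogen receptor, had 106 and 102 CPM in BT474 and 98.5 and 103 CPM in BT474R, a difference of -0.04 (SE 0.08, adjusted p = 0.714) that was smaller than the spread between libraries. FOXA1, which opens chromatin for steroid receptors, fell by 0.14 (SE 0.04), with an adjusted p of 0.0798 without BT474R replicate 2. GATA3, the factor that specifies luminal cells, fell from 480 and 465 to 40.4 and 38.9 CPM (-3.57, SE 0.10, adjusted p = 1.26e-26). Over all 20 libraries of each line GATA3 lay between 307 and 546 CPM in BT474 and between 10.6 and 55.5 CPM in BT474R. XBP1, a stress factor abundant in luminal cells, rose by 1.18 (SE 0.04). In this list 6 of 20 were higher and 9 lower, with a median of -0.13.

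Of 20 genes known as targets of these receptors, 11 were lower and 5 higher, with a median of -0.79. PGR and CA12, both induced by estrogen, were at a small share of their BT474 level, as given above. GREB1, a cofactor of the estrogen receptor, fell from 351 and 359 to 72.9 and 76.4 CPM (-2.25, SE 0.06), and STC2, a secreted glycoprotein, from 130 and 132 to 37.7 and 42.2 CPM (-1.71, SE 0.09). The trefoil peptide TFF3 rose by 1.74 (SE 0.07) and the lipoxygenase ALOX15B by 1.98 (SE 0.08). The list therefore did not follow 1 direction, with ESR1 itself at a like level in both lines.

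**Figure D5:**
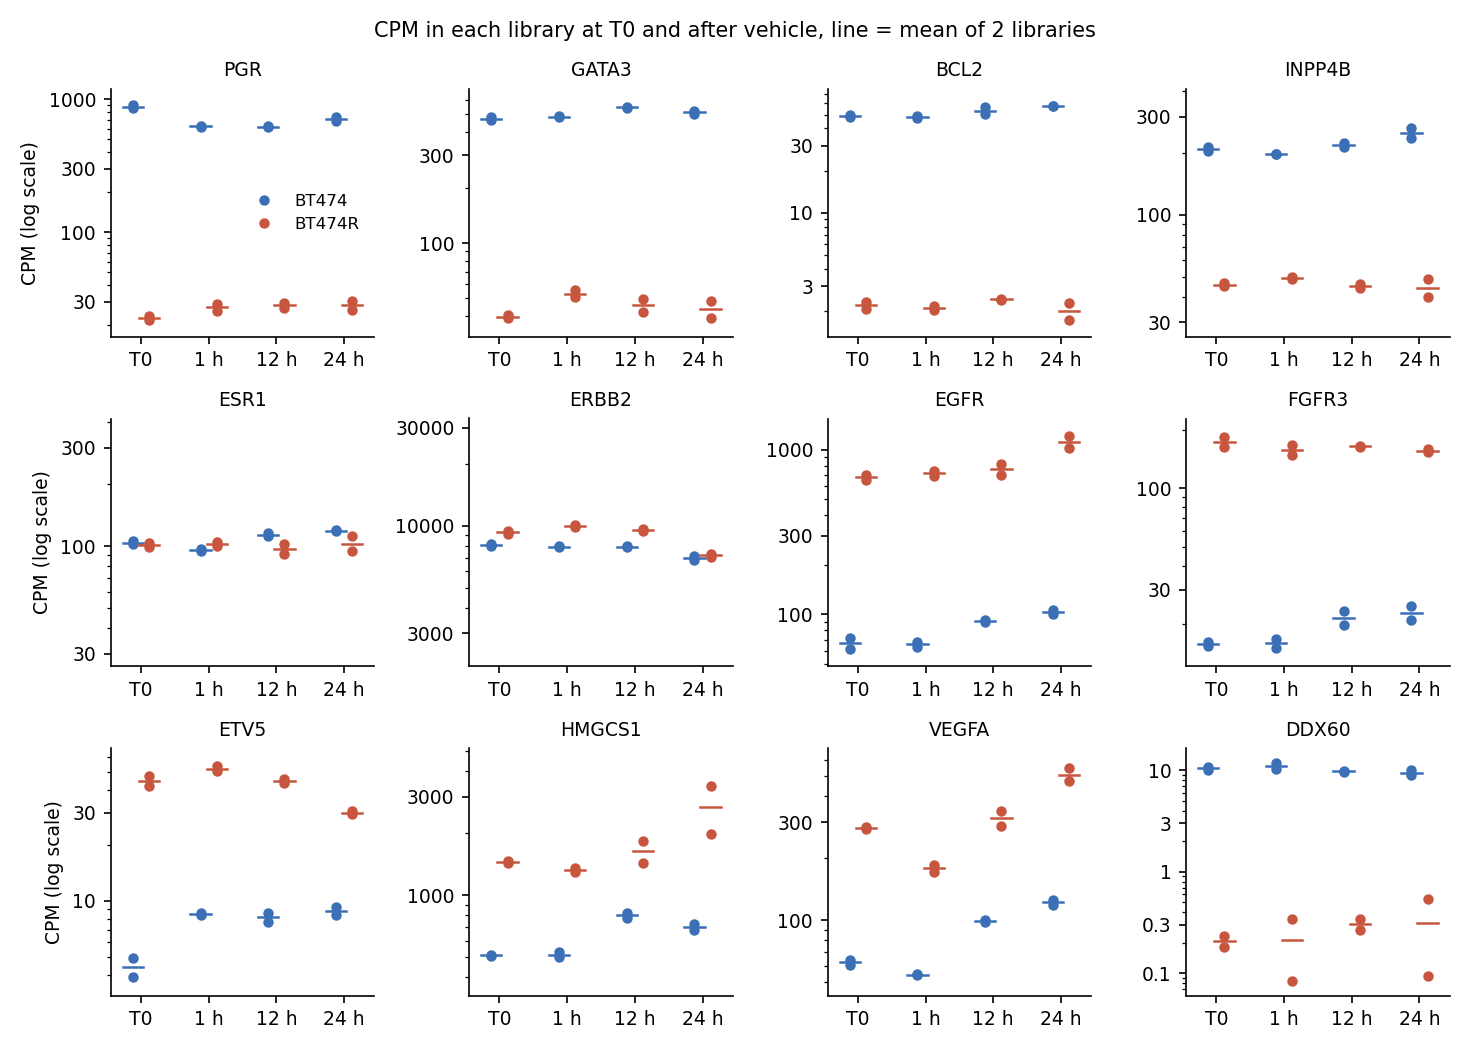
CPM on a log scale of 12 genes in each BT474 (blue) and BT474R (red) library at T0 and after 1 h, 12 h and 24 h of vehicle, with a short line at the mean of the 2 libraries. PGR, GATA3, BCL2, INPP4B and DDX60 stay lower and EGFR, FGFR3, ETV5, HMGCS1 and VEGFA stay higher in BT474R at every time, while ESR1 overlaps at T0.

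Interferon-stimulated genes were lower in BT474R as a list. Of 46 tested, 25 were lower and 5 higher, beside 21.7% and 25.1% of all genes, and the median was -1.14, or -0.95 with genes that had no count in a line set to their bound. The RNA helicase gene DDX60 had 10.8 and 10.1 CPM in BT474 and 0.18 and 0.234 CPM in BT474R (-5.60, SE 0.30, adjusted p = 5.08e-18). PARP14, an ADP-ribosyltransferase, fell from 69.6 and 68.6 to 10.6 and 11.5 CPM (-2.64, SE 0.14), OAS3, which senses double-stranded RNA, by 2.87 (SE 0.14) and HERC6, a ubiquitin ligase, by 4.04 (SE 0.19). IFITM3 and SAMD9, an antiviral factor, were at the detection limit in BT474R. The opposite direction was taken by IFI6, a mitochondrial protein, from 2.63 and 2.59 to 13.2 and 12.1 CPM (2.27, SE 0.14), by USP18, which restrains the interferon receptor (1.16, SE 0.09), by the exonuclease ISG20 (1.14, SE 0.17) and by the lysosomal thiol reductase IFI30 (0.89, SE 0.06). The list thus held antiviral genes that were nearly lost next to members that were raised.

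As a list, the regulators of that response differed less. Of 29 interferon signalling genes 8 were higher (27.6%) and 9 lower (31.0%), beside 25.1% and 21.7% of all genes, with a median of -0.05. By 1 or more, 1 was higher and 3 were lower. The members named next all fell, and the 8 higher ones are counted here without their names. STAT2, which carries the signal of type I interferon, fell by 0.56 (SE 0.07). JAK2, a kinase of the interferon gamma and cytokine receptors, went from 1.97 and 2.30 CPM to 1 count and 0 counts, and IRF1 fell by 1.36 (SE 0.26). Promoters are shown for genes of this list that were lower (DDX60, PARP14, IFITM3) and higher (IFI6), to set the shared interferon response element beside the opposite changes. Each holds 250 bases before the start in GRCh38.p14 (RefSeq), with matches to the motif, GAAA and again GAAA after 2 bases of any kind, searched on both strands, in capitals. DDX60 is chr4:168318753-168319002 on the minus strand, PARP14 chr3:122680589-122680838 on the plus strand, IFITM3 chr11:320861-321110 on the minus strand and IFI6 chr1:27672193-27672442 on the minus strand.
DDX60: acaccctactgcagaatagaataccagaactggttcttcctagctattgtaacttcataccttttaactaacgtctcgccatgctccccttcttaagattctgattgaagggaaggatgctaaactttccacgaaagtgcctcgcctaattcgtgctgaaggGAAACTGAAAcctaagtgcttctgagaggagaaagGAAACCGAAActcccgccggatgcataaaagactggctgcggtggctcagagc
PARP14: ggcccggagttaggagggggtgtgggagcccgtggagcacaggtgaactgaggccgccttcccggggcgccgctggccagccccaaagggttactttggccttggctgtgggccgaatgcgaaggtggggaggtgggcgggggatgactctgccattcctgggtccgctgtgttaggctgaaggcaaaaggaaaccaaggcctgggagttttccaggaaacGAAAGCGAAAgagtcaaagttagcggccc
IFITM3: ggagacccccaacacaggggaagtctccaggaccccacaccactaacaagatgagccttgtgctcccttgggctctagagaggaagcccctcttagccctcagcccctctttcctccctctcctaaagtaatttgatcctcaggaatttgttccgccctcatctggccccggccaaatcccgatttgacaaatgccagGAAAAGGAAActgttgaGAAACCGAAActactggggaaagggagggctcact
IFI6: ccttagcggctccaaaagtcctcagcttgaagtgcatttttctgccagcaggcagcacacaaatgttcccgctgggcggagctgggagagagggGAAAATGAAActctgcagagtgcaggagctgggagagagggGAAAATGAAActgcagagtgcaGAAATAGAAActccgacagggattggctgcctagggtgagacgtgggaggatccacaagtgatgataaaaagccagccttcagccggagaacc
DDX60 and IFITM3 had 2 matches, PARP14 had 1 and IFI6 had 3. The motif was in 522 of 15307 promoters (3.41%) and in 25 of the 34 interferon-stimulated genes with a promoter (73.5%). It was held by 15 of 20 called lower, 3 of 4 called higher and 7 of 10 not called.

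Antigen presentation genes were lower in 10 of 18 cases and higher in 1, with a median of -0.84. B2M, the light chain of HLA class I, fell from 40.7 and 36.8 to 17.9 and 19.2 CPM (-1.06, SE 0.08), the immunoproteasome subunit PSMB10 by 1.3 (SE 0.15) and the peptide transporter TAP1 by 1.05 (SE 0.20). The TAP1 difference became -0.82 once further copies of the gene in the table were summed with it. HLA-C stood at 139 and 130 CPM in BT474 and 139 and 136 CPM in BT474R (0.03, SE 0.05, adjusted p = 0.601). HLA-DRB1 fell by 1.86 (SE 0.51) on few counts, with an adjusted p of 0.0604 without BT474R replicate 1, and HLA genes vary between haplotypes, so reads can be lost or shared there. TLR3, a sensor of double-stranded RNA, had 37 and 23 counts in BT474 and 0 counts and 1 count in BT474R. Of 21 cytokine and chemokine genes 4 were higher and 7 lower, CXCL14 with the largest fall, and the receptor CXCR4 rose from 9.40 and 8.07 to 49.9 and 50.6 CPM (2.52, SE 0.09).

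Targets of hypoxia-inducible factor were higher in BT474R in 16 of 20 cases, lower in 1 and had a median of 1.23. VEGFA, which drives vessel growth, had 60.6 and 64.2 CPM in BT474 and 283 and 277 CPM in BT474R (2.17, SE 0.09, adjusted p = 5.04e-21). NDRG1, a stress-response gene, rose from 116 and 107 to 525 and 521 CPM (2.23, SE 0.18), the collagen cross-linking enzyme LOX from 1.12 and 1.08 to 36.4 and 36.3 CPM (5.04, SE 0.20), the prolyl hydroxylase EGLN3 by 1.92 (SE 0.15) and the mitophagy receptor BNIP3 by 2.07 (SE 0.20). The 1 lower member was CA12. Of the factors themselves, EPAS1 (HIF2A) rose from 15 and 16.7 to 65.1 and 59.9 CPM (1.98, SE 0.08), and HIF1A by 0.29 (SE 0.04), from 214 and 209 to 266 and 251 CPM.

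The CA9 promoter is shown because CA9 passed from the detection limit to 8.28 CPM or more. It covers chr9:35673678-35673927 on the plus strand of GRCh38.p14 (RefSeq), with the match to ACGTG, the core of the hypoxia response element, in capitals as it reads on the other strand.
CA9: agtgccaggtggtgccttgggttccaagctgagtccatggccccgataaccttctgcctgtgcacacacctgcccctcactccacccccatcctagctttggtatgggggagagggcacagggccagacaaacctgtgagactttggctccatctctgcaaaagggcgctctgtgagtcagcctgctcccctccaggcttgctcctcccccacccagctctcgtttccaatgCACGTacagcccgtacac
The match ended 13 bases before the start. The motif was found on either strand in 26.1% of all promoters, in 8 of the 16 hypoxia targets with a promoter and in 16 of 27 glycolysis genes (59.3%).

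Glycolysis and lactate genes were higher in 17 of 30 cases and lower in 5, with a median of 0.54. Of the enzymes that set the flux, hexokinase HK2 rose from 106 and 99.8 to 417 and 390 CPM (1.97, SE 0.15), and PFKFB4 and PFKFB3, which set the level of an activator of phosphofructokinase, by 1.97 (SE 0.17) and 1.88 (SE 0.28). PGK1 and ALDOA, of the lower and the upper steps, rose by 1.40 (SE 0.15) and 1.17 (SE 0.09), and PDK1, which inhibits pyruvate dehydrogenase, by 2.40 (SE 0.19). LDHB, the lactate dehydrogenase subunit that favours pyruvate, fell from 79.0 and 78.6 to 24.3 and 24.4 CPM (-1.69, SE 0.07). GAPDH, often used as a reference gene, was at 2159 and 2032 CPM against 2050.4 and 2033 CPM (-0.04, SE 0.08, adjusted p = 0.728).

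Nuclear genes of oxidative phosphorylation moved little. Of 51 tested, 20 were higher and 11 lower, none by 1 or more, with a median of 0.04, and of 20 genes of mitochondrial biogenesis 3 were higher and 11 lower, with a median of -0.23. Of 24 genes tested on the mitochondrial chromosome 21 were lower and none higher, with a median of -1.10. They include the ribosomal RNAs RNR1, from 7091 and 7445 to 2461 and 2387 CPM (-1.58, SE 0.09), and RNR2, which fell by 0.55 (SE 0.08). The protein-coding genes of the mitochondrial genome were not analysed here, so these values do not describe its messages. The kit selects for poly(A) RNA, so the counts cover the part of this mitochondrial RNA that was captured.

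All 27 genes of sterol synthesis were called higher in BT474R, with a median of 0.73 and 9 of them by 1 or more, beside 25.1% of all genes called higher. HMGCS1, an early enzyme of the pathway, rose from 508 and 511 to 1469 and 1435 CPM (1.51, SE 0.16, adjusted p = 6.84e-10). FDPS, which makes farnesyl diphosphate, rose by 1.28 (SE 0.09) and MSMO1, a later demethylase, by 1.23 (SE 0.12). SREBF2, the master regulator of the pathway, rose from 248 and 245 to 464 and 476 CPM (0.93, SE 0.05). With another scaling of the libraries, 24 of the 27 were called higher and none lower. The sterol response element, TCAC and CCAC with 1 base of any kind between them, was found on either strand in 1 of the 21 promoters in this list, against 1.12% of all promoters.

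Fatty acid and triglyceride synthesis was also raised on balance, 19 of 33 higher and 8 lower, with a median of 0.40. The desaturases SCD and FADS2 rose by 1.54 (SE 0.11) and 1.03 (SE 0.09), to 4348 and 4302 CPM and to 2187 and 2212 CPM, and fatty acid synthase FASN by 0.79 (SE 0.08), from 2791 and 2755 to 4819 and 4803 CPM. DGAT2, which completes triglycerides, rose from 1.51 and 1.66 to 12.4 and 12.1 CPM (2.95, SE 0.16). SREBF1, the regulator of this arm, rose by 0.61 (SE 0.05).

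Mitosis genes were higher in 19 of 33 cases and lower in 4, none by 1 or more, with a median of 0.22, and replication genes in 16 of 35 and lower in 8. Only 4 of the called mitosis genes and 6 of the called replication genes were also called in the same direction at all 3 vehicle times. Among all genes called at T0 that share was 69.8%. In the G1 list 6 of 21 were higher and 10 lower. Cyclin D1, CCND1, fell by 0.82 (SE 0.10) from 516 and 508 to 292 and 288 CPM. The inhibitors CDKN2A and CDKN1B were both lower, CDKN2A from 6.03 and 5.14 to 0.3 and 0.562 CPM (-3.64, SE 0.34) and CDKN1B from 93.3 and 89.3 to 43.1 and 43.8 CPM (-1.07, SE 0.06), and CDKN2B, which is next to CDKN2A, fell by 1.67 (SE 0.24). The transcription factor E2F1 rose by 1.02 (SE 0.08). In the BCL2 family 5 of 18 were higher (27.8%) and 6 lower (33.3%), beside 25.1% and 21.7% of all genes, and its namesake had the largest change. BCL2, which blocks apoptosis, had 49.6 and 47.7 CPM in BT474 and 2.34 and 2.06 CPM in BT474R (-4.48, SE 0.16, adjusted p = 2.33e-23). Of the members that promote cell death, BCL2L11 (BIM) rose by 1.48 (SE 0.05) and PMAIP1 (NOXA) fell by 1.90 (SE 0.16).

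BT474R kept an epithelial profile with shifts in junction genes. Of 23 luminal keratin and junction genes 10 were higher and 9 lower, with a median of 0.05. KRT8 and KRT18, the simple keratins, fell by 0.53 (SE 0.09) and 0.38 (SE 0.10), KRT19 and KRT7 rose by 0.29 (SE 0.06) and 0.81 (SE 0.06), and CDH1 (E-cadherin) fell by 0.22 (SE 0.04), from 1052 and 1017 to 878 and 894 CPM. The desmosome genes DSG2 and PKP2 fell by 2.46 (SE 0.07) and 1.86 (SE 0.07), DSG2 from 217 and 201 to 36.7 and 39.1 CPM, and EPCAM rose by 1.07 (SE 0.05). Basal and mesenchymal genes were mixed, 11 of 30 higher and 8 lower. The hyaluronan receptor CD44 fell from 32.6 and 30.5 to 6.96 and 6.18 CPM (-2.27, SE 0.11), annexin ANXA1 from 16.4 and 15.5 to 0.42 and 0.374 CPM (-5.32, SE 0.20) and the factor TWIST1 by 2.52 (SE 0.15), while S100A4 rose by 1.80 (SE 0.10). Among integrins 8 of 19 were higher and 3 lower, ITGA5, of the fibronectin receptor, by 4.0 (SE 0.37) from 0.348 and 0.342 CPM and ITGB4, of hemidesmosomes, by 1.19 (SE 0.06).

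S100 genes, of which several lie together on chromosome 1, were higher in 9 of 17 cases and lower in 2, with a median of 1.11, or 0.84 with genes that had no count in a line set to their bound. Beside S100A1, S100A13 rose from 44.5 and 42.9 to 254 and 245 CPM (2.51, SE 0.06), and S100P, on another chromosome, from 3.56 and 2.74 to 41.3 and 40.8 CPM (3.68, SE 0.14). Of 30 HOX genes 13 were higher and 3 lower, and several of the gains lay in the HOXB cluster on chromosome 17. HOXB5, which patterns the body axis, had 0 counts and 1 count in BT474 and 2.88 and 2.81 CPM in BT474R, HOXB3 rose by 4.96 (SE 0.36), HOXB8 by 3.23 (SE 0.50) and HOXB6 by 2.45 (SE 0.16), while HOXB13, at the end of the cluster, fell by 0.82 (SE 0.06) from 123 and 110 to 65.9 and 65.9 CPM. Mucins were split, 6 of 11 higher and 4 lower. MUC1, the membrane mucin of luminal cells, rose from 91.7 and 88.6 to 303 and 281 CPM (1.69, SE 0.12) and MUC5B by 2.70 (SE 0.27), and MUC19 fell by 3.83 (SE 0.35).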

How the data were processed

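RNA-seq counts of 40 libraries of BT474 and BT474R were used, of which the 4 T0 libraries carry the comparison. Per the submitters' processing notes and the study's methods, the authors trimmed reads with Trim Galore 0.6.6, aligned them to GRCh38.p13 with Rsubread and made gene counts with featureCounts, and these counts were deposited without normalization. The libraries were made with a kit for poly(A) RNA. Which annotation release was counted, whether strand was used and how multi-mapping reads were counted is not given in the sources used here. The table holds 44584 gene names, of which 24641 had at least 1 count in at least 20 of the 40 libraries and were tested.

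Counts were scaled by TMM and tested with edgeR 4.0.16 (R 4.3.3) by the quasi-likelihood F test, in 1 fit of all 40 libraries with a term for each line, treatment and time, so that the spread is shared over all 20 groups. P-values were adjusted by Benjamini-Hochberg over all genes tested, with a threshold of 0.05. The standard error of a log2 difference is its size divided by the square root of F. CPM are counts scaled to TMM library sizes. A fold against a line without counts uses a floor of 3 counts over the group, and ratios that rest on few counts carry exact 95% intervals, which cover counting error only. At least 1 CPM in each library of the other line was asked of genes at the detection limit. The fit was tried on simulated data with known changes in a small part of the genes. This does not check the scaling where as many genes differ as here.

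Genes were placed along chromosomes by RefSeq symbol, which found 21405 of 22541 genes (95.0%) that are not repeats of another name. Rows that repeat another name with a number (2100 tested) and LOC genes (3852 tested) were counted but not named. A few list members are counted in their lists and not reported here by name. Genes were named as the 12 called with the largest differences in each direction and no overlap between libraries at 1 CPM or more, the 8 called at 100 CPM or more, the 12 at the detection limit of each line with the highest level in the other, and the members of 51 gene lists with a log2 difference of 1 or more or a defining role. Families of neighbouring genes were picked after their values were seen. The members and lists were chosen with earlier results of these data known. Alternatives were DESeq2 1.42.0, its size factors, other filters, other sets of libraries, the replicate number as a block, thinned counts, summed copies, each T0 library left out in turn, other detection limits and other windows.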

Additional observations from a re-analysis of the deposited data

Results flagged for a closer look

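The differences between the lines at T0 were compared with those under vehicle, as the change of the log2 difference with edgeR's quasi-likelihood test over all genes. Out of 24641 genes, the 1 h difference had changed in 120, the 12 h difference in 331 and the 24 h difference in 1592. Those among the genes described are given below, a negative change meaning a lower BT474R to BT474 ratio under vehicle than at T0.

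Among targets of MAP kinase signalling, ETV4, ETV5, SPRY4 and DUSP6 were closer between the lines at 24 h of vehicle than at T0, and DUSP4 was further apart. ETV5 went from 3.32 to 1.75 at 24 h, a change of -1.56, after -0.86 at 12 h. The change of ETV4 was -1.41 at 12 h and -2.17 at 24 h, where its difference was 0.14. SPRY4 changed by -0.75 at 1 h, -0.74 at 12 h and -1.28 at 24 h. DUSP6 changed by -0.89 at 24 h, and DUSP4 by -0.59 at 1 h and 0.28 at 24 h. Among receptor kinases, FGFR3 changed by -0.52 at 12 h and -0.70 at 24 h, FGFR4 by -0.29 and -0.38 at those times, and at 24 h RET by -0.48, MST1R by 0.56 and IGF1R by 0.39. At 24 h ERBB2 changed by -0.17, to a difference of 0.04, ERBB4 by 0.46 and PNMT by -0.35, and GSDMB by -0.63 at 12 h.

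PGR stayed lower in BT474R throughout, with changes of 0.76 at 1 h, 0.81 at 12 h and 0.62 at 24 h. GREB1, an estrogen receptor target, changed by 0.69 at 12 h and 0.36 at 24 h, and STC2, another, by -0.78 at 1 h and 0.78 at 24 h. HOXB13 changed by 0.37 at 1 h and -0.44 at 24 h.

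FDPS, of the sterol pathway, went from 1.28 to 2.32 at 24 h (change 1.03), while DGAT2 changed by -0.92. VEGFA changed by -0.50 at 12 h, and at 24 h EGLN3 changed by 0.72, HIF1A by -0.28, E2F1 by -0.78 and IFI6 by -0.59. RNR1, the mitochondrial ribosomal RNA, changed by 0.75 at 12 h and 0.66 at 24 h.

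The remaining changes at 12 h were 0.52 for COL12A1, -0.82 for S100P, -0.60 for CXCR4, -1.05 for ABCC11, -0.79 for ABCC3 and 1.80 for MT2A, which was lower in BT474R at T0 (-1.29) and higher under vehicle (0.51). At 1 h TNFRSF10B changed by -1.0. At 24 h they were 1.09 for S100A4, -0.37 for EPCAM, 0.82 for DSG2, 0.59 for CD44, -0.45 for PEG10, 0.37 for GRB10, -0.79 for BMP7, -0.68 for ABCC11, -0.98 for ABCC3, -1.75 for NOG, 0.47 for TGFBR1 and 1.71 for BIRC3.

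Among the genes at the detection limit at T0, 4 reached a mean of 1 CPM or more in a ligand group of the line that lacked them, above the vehicle groups of that line. Under HRG at 24 h CA9 had a mean of 2.14 CPM and ACOX2 one of 1.63 CPM in BT474, and CCR1 one of 1.3 CPM in BT474 at 1 h of HRG. IFITM3 had a mean of 2.82 CPM in BT474R at 24 h of EGF. These were not tested against vehicle.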

How the results depend on the processing

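No named gene changed the sign of a called difference. The balance of calls did turn, from 6196 higher and 5358 lower to 6149 higher and 6358 lower with only the 4 T0 libraries. The count of genes called at T0 (11554) lay between 10374 with DESeq2 and 12507 with only the 4 T0 libraries, and was 9562 to 10070 with a T0 library left out. DESeq2 size factors called 11557 and moved the share of higher calls from 53.6% to 50.1%, since they shift the median difference by -0.04 on the log2 scale. At a log2 difference of 1 or more 4058 genes were called. Genes called under vehicle at all 3 times too numbered 8062, and 7288 to 7538 with a T0 library left out. The 105 genes at the limit in BT474R became 63 at a limit of 1 count, 293 at 10 counts and 25 at 5 CPM or more in BT474, and 118 to 164 with a library left out. The 52 in BT474 became 23, 173 and 12, and 61 to 90. Windows of 51 genes beyond 0.5 made up 7.5%, against 12.7% for 25 genes and 18.0% for 15.

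Of 215 named calls, all 215 were called in 7 of the 13 alternative fits. EPGN was lost with thinned counts (adjusted p = 0.083) and DESeq2 (0.0876), and EPGN, PCDHA5, HLA-DRB1, RTL1, TCF7 and FOXA1 were lost with a library left out; the cause was not tested. GAPDH was called with only the 4 T0 libraries (-0.08, adjusted p = 0.0186) and HLA-C with copies summed (0.11, adjusted p = 0.0199). In fits without a BT474 replicate 6 named genes had no value.

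The replicate number as a block gave 11647 calls and kept 215 of 215 named ones, with 8114 calls also made under vehicle. Deviations of same-numbered T0 libraries did not correlate between the lines (-0.0185), and over 190 pairs of groups the correlation ran from -0.216 to 0.385, so the numbers were not taken to pair the libraries.

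The detection limit of 3 counts stood for 0.12 to 0.179 CPM in the T0 libraries. RNA below it is not detectable at this depth. With 2 libraries a group, low genes carry wide errors, and the lines differ as 1 clone against its parent.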

Other observations

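Developmental signalling pathways moved in both directions. Of 40 Wnt pathway genes 15 were higher in BT474R at T0 and 12 lower, beside 25.1% and 21.7% of all genes, with a median of 0.08. NKD1, a feedback inhibitor that Wnt signalling induces, rose from 0.967 and 1.08 CPM to 14.3 and 12.3 CPM (3.69, SE 0.20). AXIN2, another such inhibitor, rose by 2.35 (SE 0.28) and the ligand WNT5A by 2.98 (SE 0.27). The R-spondin receptor gene LGR6 had 0.657 and 1.17 CPM in BT474 and no count in either BT474R library. TCF7, a transcription factor of the pathway, fell by 1.5 (SE 0.45), with an adjusted p of 0.0534 by edgeR without BT474R replicate 1. Of 25 Notch genes 9 were higher and 6 lower, and 2 target genes of the pathway differed in direction, HEY1 rising by 2.26 (SE 0.38) and HEY2 falling by 2.94 (SE 0.16). LFNG, which glycosylates Notch receptors, rose from 92.3 and 90.2 CPM to 250.4 and 225 CPM.

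TGF-beta and BMP genes were higher in 21 of 41 cases and lower in 10, with a median of 0.18. The ligand gene BMP7 rose from 151 and 143 CPM to 789 and 740 CPM (2.38, SE 0.09), and NOG, which encodes the BMP antagonist noggin, rose by 2.85 (SE 0.26). GDF15, a divergent member of the family, rose from 0.464 and 0.489 CPM to 12.5 and 10.6 CPM. TGFBR1, a receptor, rose by 1.07 (SE 0.10) and LTBP2, of the latent TGF-beta binding proteins, by 2.87 (SE 0.16). BMPR1B, a BMP receptor, fell by 2.9 (SE 0.58), and ID4, a target of BMP signalling, fell by 2.37 (SE 0.48).

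Of 23 ABC transporter genes 13 were higher and 4 lower, with a median of 0.35. ABCC3, which exports organic anions, rose from 243 and 249 CPM to 643 and 579 CPM (1.31, SE 0.07), and ABCC11 rose by 2.15 (SE 0.08). ABCA1 rose by 2.71 (SE 0.15) and ABCG1 by 1.29 (SE 0.07), both of which move cholesterol out of cells. ABCC5 fell by 1.32 (SE 0.07), and ABCA4, a transporter known from photoreceptors, fell from 31.9 and 31.2 CPM to 0.36 and 0.281 CPM. None of the 4 metallothionein genes tested was higher and 3 were lower. MT2A fell by 1.29 (SE 0.33), MT1X by 2.62 (SE 0.60), and MT1A had no count in either BT474R library against 1.24 and 1.47 CPM in BT474.

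Of 24 death receptor and caspase genes 7 were higher and 10 lower, with a median of -0.25. TNFRSF10B, a receptor for TRAIL, rose by 1.24 (SE 0.08), whereas CASP4, an inflammatory caspase, fell from 15.7 and 14.7 CPM to 2.28 and 2.48 CPM and BIRC3, an inhibitor of apoptosis, fell by 2.55 (SE 0.29). Of 25 p53 target genes 8 were higher (32.0%) and 6 lower (24.0%), near the 25.1% and 21.7% of all genes. Of the paralogs of p53 itself, TP73 rose by 3.51 (SE 0.21) and TP63, a marker of basal cells, fell by 2.06 (SE 0.24). Cadherins outside the clustered families were higher in 7 of 23 cases and lower in 11, with a median of -0.52. CDH3, P-cadherin, rose by 1.23 (SE 0.07), PCDH19 fell by 3.09 (SE 0.16) and PCDH10 by 3.98 (SE 0.28). All calls here are those of edgeR, adjusted by Benjamini-Hochberg over the 24641 genes tested.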
